A study of Mus musculus with 47 samples.

Results

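To ask how the hypothalamic response to fibroblast growth factor 1 (FGF1) differed between an early and a late day, the effect of a single intracerebroventricular (icv) injection on Day 42 was compared with its effect on Day 5, gene by gene. The comparison used 26 of the 47 mRNA libraries of the study, each from 1 mouse, and took the difference (FGF1 minus vehicle on Day 42) minus (FGF1 minus vehicle on Day 5). All mice were male ob/ob mice, which lack functional leptin and are obese, and the labels give an age of 11 weeks for every group without saying at which step. FGF1-treated mice received 3 ug of recombinant human FGF1 and were killed 5 days (9 mice) or 42 days (5 mice) later. Vehicle-treated mice (7 on Day 5 and 5 on Day 42) were injected icv with vehicle, pair-fed to the FGF1-treated mice and labelled non-diabetic. A further vehicle group of Day 5, labelled diabetic, was used only as an alternative control. Every mouse of the comparison, controls included, therefore carried the ob/ob genotype and an injection into the ventricle, and the different mice of a group are the only replicates. The paper describes the pair-feeding of vehicle-treated mice for the first days after the injection. Controls of the early day were thus killed near the end of food matching, and controls of the late day long after it. The control arms differed in this too, and its part in the changes was not tested.

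Day and library preparation cannot be told apart, since all libraries of a day share 1 preparation, and sequencing depth differed too. Total counts were 7.70 to 30 M on Day 5 (medians of 9.41 M for FGF1 and 8.94 M for vehicle) and 19.4 to 43.9 M on Day 42 (medians of 40 M and 39.5 M) (M, mega). On Day 5 the libraries US-1642330 and US-1642331, both of FGF1-treated mice, had 30009258 and 27922117 counts. The vehicle libraries of that day reached at most 9.86 M. Each FGF1 effect lies within 1 day, so a shift between preparations that is equal in both arms drops out of the difference, whereas a level compared between days does not have this protection. Levels are given as CPM, the counts relative to the library total scaled by TMM factors, and effects as log2 fold changes (log2 FC) of FGF1 against vehicle. A negative change means that the effect was lower on Day 42 than on Day 5.

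FGF1 signals through receptor tyrosine kinases on many glial cells, which include astrocytes of the hypothalamus and the tanycytes that line the ventricle beside it. Astrocytes that react to a stimulus raise intermediate filament genes such as Gfap and Vim together with acute-phase and extracellular genes. Oligodendrocytes arise from precursors by way of a short newly formed stage marked by Gpr17, Bmp4 and Enpp6, after which myelin genes dominate. In tissue pieces, more cells of a type and more RNA per cell of that type give the same measurement and cannot be told apart.

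Of 14221 genes tested with the edgeR quasi-likelihood test, 69 had a lower FGF1 effect on Day 42 than on Day 5 (0.485% of genes) and 33 a higher one (0.232%), at an adjusted p under 0.05 and an absolute log2 difference above 0.5. Over all genes the median change was -0.01. Of the genes with a lower effect, 9 were in the list of reactive astrocyte genes, 8 in that of newly formed oligodendrocytes and 2 in that of homeostatic microglia, while 43 were in no list. The median log2 FC of the 69 genes was 0.74 on Day 5 and -0.04 on Day 42, and 62 of the 69 also passed both thresholds as higher on Day 5. The genes with a higher effect had a median log2 FC of -0.57 (Day 5) and 0.64 (Day 42), and 8 of the 33 passed as lower on Day 5. Of all genes, 1.31% passed as higher and 0.232% as lower on Day 5. The change contains the same Day 5 values, so that such overlaps and medians, here and below, are in part built into the choice.

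One FGF1 library of Day 42, Sample_11, stood apart from the other 25 in summed marker levels. Its summed level of 11 genes of forebrain excitatory neurons was 3443 CPM, against 632 to 915 CPM in the other 9 mice of Day 42 and 345 to 549 CPM on Day 5. Its choroid plexus sum of 6 genes was 2017 CPM, against 257 to 423 CPM in those other 9 mice. Its sum of 15 transcription factor genes of the hypothalamus, 61.3 CPM, was the lowest of all, below 100.2 to 157 CPM in the others of Day 42 and 89.3 to 120.1 CPM on Day 5. Vehicle replicate 16 of Day 42 also lay at the edge of its day in some sums. Its glutamate and GABA receptor sum was 5273 CPM, against 6427 to 8123 CPM in the other mice of Day 42. Its metallothionein sum was 454.9 CPM, against at most 248.8 CPM in those other mice. Without Sample_11, 49 genes had a lower effect on Day 42 (0.345%) and 7 a higher one (0.0492%). Of the 69 genes, 48 passed again and their number was joined by 2810459M11Rik (change of -0.59 with all libraries and -0.74 without Sample_11). Of the 33 genes, 7 passed again and 26 did not.

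**Figure D1:**
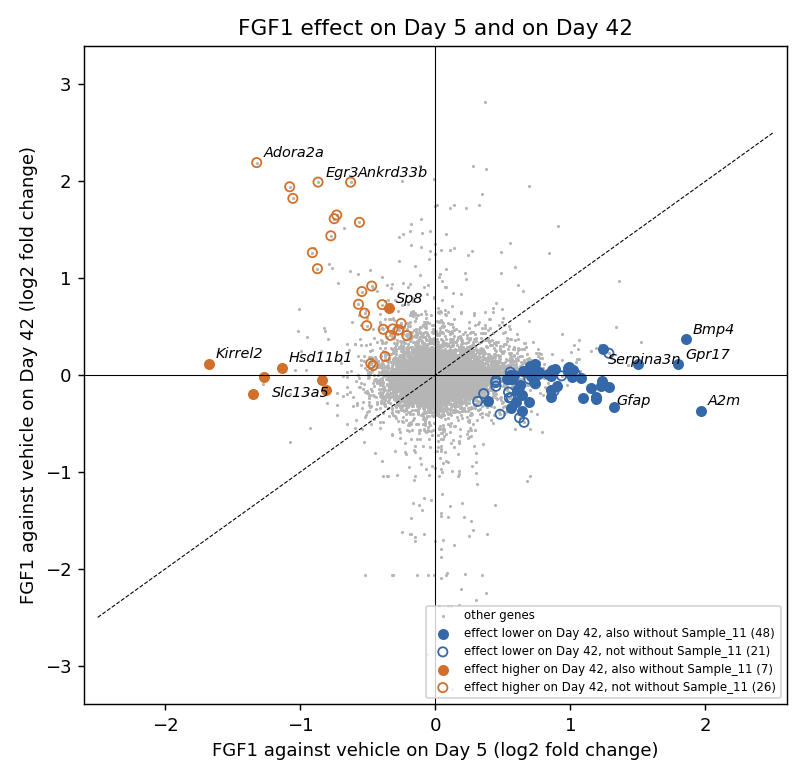
FGF1 effect of each gene on Day 5 (x axis, log2 FC) and on Day 42 (y axis, log2 FC), with genes past the thresholds for the change in color, filled where they also passed without Sample_11 and open where they did not. The 69 genes with a lower effect (blue) lie to the right of 0 on Day 5 and near 0 on Day 42, while most open orange circles lie above 0 on the Day 42 axis and below 0 on Day 5.

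On Day 5, 186 genes passed as higher (1.31% of genes) and 33 as lower (0.232%) in FGF1-treated mice. On Day 42 no gene passed (0% of genes) in edgeR or DESeq2, 776 genes had an unadjusted p under 0.05, and the smallest edgeR adjusted p was 0.27. Without FGF1 replicate 7 of Day 42, 25 genes passed as higher and 6 as lower on that day, and without FGF1 replicate 8, 1 gene passed as higher. The count of 0 on Day 42 therefore depended on these mice.

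The 186 genes raised on Day 5 had a median log2 FC of 0.67 on that day and 0.02 on Day 42. Of these, 185 had a negative change, 62 of them past the thresholds. The other 124 had a median log2 FC of 0.65 (Day 5) and 0.06 (Day 42) without the change passing. Because these genes were picked for being high on Day 5, some decline is built into the choice. The Day 42 mice are independent of it, and there 5 of the 186 (2.69%) were higher at an unadjusted p under 0.05 beside 3.07% of all genes, and 6 (3.23%) were lower beside 2.39% of all genes. Both shares were near the background.

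Only 5 of the 186 genes kept more than 50% of their Day 5 log2 FC on Day 42, and 2 of them, Fa2h and Myh6, did so without Sample_11. These 5, named after their values were seen, were Fa2h, Mki67, Myh6, Padi2 and Zeb2. Fa2h, a hydroxylase that makes myelin lipids, was 38.0 to 57.5 CPM in FGF1-treated and 29.2 to 39.96 CPM in vehicle-treated mice of Day 42, so that the groups overlapped. Its log2 FC was 0.50 on Day 5 and 0.43 on Day 42 (0.34 without Sample_11). Myh6, a cardiac myosin heavy chain, was at most 0.333 CPM in every mouse of Day 42, so that its log2 FC of 1.53 there rests on very few counts. Mki67, a marker of dividing cells, had a log2 FC of 1.36 (Day 5) and 0.97 (Day 42) (0.64 without Sample_11).

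Gfap encodes the intermediate filament of astrocytes. On Day 5 it was 400 to 644 CPM in FGF1-treated mice (median 519.5 CPM) and 133 to 254 CPM in vehicle-treated mice (median 208 CPM), with no overlap. On Day 42 the FGF1-treated mice had 183, 171, 224, 151 and 223 CPM and the vehicle-treated mice 146, 160.5, 376, 164 and 194 CPM. The Day 42 groups overlapped. The highest mouse of that day, vehicle replicate 14 (376 CPM), lay well above the other vehicle-treated mice (146 to 194 CPM). The log2 FC went from 1.29 ± 0.14 (SE) to -0.13 ± 0.17, a change of -1.41 ± 0.22 (edgeR adjusted p = 0.000154) and of -1.48 without Sample_11. In exact two-sided permutation tests of log2(CPM + 0.5), p was 8.74e-05 on Day 5, the smallest that 9 against 7 mice allow, and 0.913 on Day 42.

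Serpina3n, a secreted inhibitor of serine proteases and a common mark of reactive astrocytes, followed Gfap. Its level on Day 5 was 91.4 to 136 CPM (median 109 CPM) with FGF1 and 34.0 to 70 CPM (median 43.2 CPM) with vehicle. On Day 42 it was 41.4, 38.1, 49.9, 35.3 and 38.3 CPM with FGF1 and 34.7, 38.1, 59.5, 37.6 and 49.1 CPM with vehicle. FGF1-treated mice of Day 42 therefore lay at the vehicle level of either day. The change was -1.33 ± 0.18 (edgeR adjusted p = 6e-06).

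The promoters of 3 genes of this reactive set are shown because these 3 were higher with FGF1 on Day 5 and near vehicle on Day 42. The sequences are RefSeq promoters in GRCm38.p6, 250 bases before to 50 bases after the annotated start, written 5′ to 3′ on the gene's strand. Gfap lies at chr11:102897151-102897450 (minus strand), Serpina3n at chr12:104406458-104406757 (plus strand) and Osmr, a receptor subunit for oncostatin M, at chr15:6874264-6874563 (minus strand). Capitals mark a match to the STAT motif TTCNNNGAA in Gfap and to the AP-1 motif TGANTCA in Osmr, and Serpina3n has neither.
Gfap: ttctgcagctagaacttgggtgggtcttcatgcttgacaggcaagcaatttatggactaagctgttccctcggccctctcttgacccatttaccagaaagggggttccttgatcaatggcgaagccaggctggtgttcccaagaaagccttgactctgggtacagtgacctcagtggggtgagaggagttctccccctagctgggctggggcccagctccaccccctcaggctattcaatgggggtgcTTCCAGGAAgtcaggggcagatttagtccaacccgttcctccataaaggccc
Serpina3n: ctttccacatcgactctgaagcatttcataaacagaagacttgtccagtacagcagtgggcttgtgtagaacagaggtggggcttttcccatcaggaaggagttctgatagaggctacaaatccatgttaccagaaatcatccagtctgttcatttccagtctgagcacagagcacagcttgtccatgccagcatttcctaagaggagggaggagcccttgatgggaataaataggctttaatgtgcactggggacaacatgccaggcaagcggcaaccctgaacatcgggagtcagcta
Osmr: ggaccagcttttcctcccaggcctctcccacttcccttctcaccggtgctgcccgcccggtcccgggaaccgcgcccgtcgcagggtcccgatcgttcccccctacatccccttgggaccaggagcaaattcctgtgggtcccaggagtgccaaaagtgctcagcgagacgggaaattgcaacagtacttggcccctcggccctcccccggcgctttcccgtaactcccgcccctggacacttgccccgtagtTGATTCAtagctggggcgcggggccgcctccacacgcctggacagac
Of the 69 genes with a lower effect, 56 had a promoter in the table, as did 23 of the 33 with a higher effect and 11167 of all genes tested. The STAT motif, searched on both strands, was in the promoters of 5 of the 56 (8.93%), namely Gfap, Mgst1, Neu4, Slc7a11 and Tgif1, beside 8.07% of all. It was in 4 of the 23 (17.4%). The AP-1 motif was in 2 of the 56 (3.57%), Osmr and Zfp36l1, beside 6.07% of all. The share of the 56 with a motif was thus close to that of all genes, and a match is a stretch of letters and not a measured site.

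A2m, which encodes the protease inhibitor alpha-2-macroglobulin, had the largest change of all genes with a lower effect. It was 48.4 to 73.1 CPM (median 53.7 CPM) in FGF1-treated and 10.2 to 22.9 CPM (median 14.1 CPM) in vehicle-treated mice of Day 5. On Day 42 the values were 24.1, 23.7, 17.3, 23 and 20.9 CPM with FGF1 and 27.6, 18.97, 26.98, 27 and 39.7 CPM with vehicle, which overlapped. The log2 FC of 1.96 on Day 5 was -0.37 ± 0.16 on Day 42 (exact permutation p = 0.111) and -0.21 without vehicle replicate 16, the highest mouse of that day, and the change was -2.33 ± 0.21 (adjusted p = 1.78e-10). The change of A2m was -2.32 without Sample_11.

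Among 28 measured genes of the reactive astrocyte list, 9 had a lower effect on Day 42 and none a higher one, and 7 of the 9 did without Sample_11. Their share, like those below, stands beside 0.485% and 0.345% of all genes. The list median went from a log2 FC of 0.56 on Day 5 to -0.02 on Day 42. Aspg, an asparaginase, had a change of -1.65, Cd109, a surface glycoprotein, -1.03, and Fbln5, an elastic fiber protein, -1.11. Aspg passed in 35 and Fbln5 in 34 of 38 alternatives, and neither passed with limma voom weights. Cd44, the hyaluronan receptor, was 11.4 to 14.4 CPM with FGF1 and 6.59 to 10.8 CPM with vehicle on Day 5, without overlap. On Day 42 Cd44 was 10.8, 9.52, 7.24, 10.8 and 7.996 CPM with FGF1 and 16.3, 8.90, 10.8, 12.5 and 11.4 CPM with vehicle. Its log2 FC turned from 0.64 to -0.37 (exact permutation p = 0.103 on Day 42, and -0.24 without vehicle replicate 12), and the change was -1.01 ± 0.20 (adjusted p = 0.00438). Vim, the filament shared by reactive astrocytes and tanycytes, had a change of -0.82 ± 0.21 (-0.91 without Sample_11). Vim passed in 23 of 38 alternatives, over which its change ran from -1.003 to -0.654, and did not pass with only the 26 libraries, with limma voom weights or without any 1 of 13 single mice. Cd109 did not pass without FGF1 replicate 8 or vehicle replicate 14 of Day 42, or without the vehicle library US-1642312 or US-1642318. Osmr (change of -1.02) did not pass without Sample_11 (-1.01, edgeR adjusted p = 0.0518), vehicle replicate 14 of Day 42 or US-1642312. Nor did Osmr pass with the diabetic-labelled vehicle of Day 5. C4b, a complement component (change of -1.14), passed in 10 of 38 alternatives, with a range of -1.435 to -0.818, and did not pass without any 1 of 21 single mice, of which Sample_11 was 1. For S100a10, an annexin partner also used as a reactive marker, the change was -0.29 (adjusted p = 0.435).

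Of 20 genes of astrocytes in general, only Aqp4, the water channel of astrocyte endfeet, passed. On Day 5 it was 237 to 358 CPM (median 275 CPM) with FGF1 and 116 to 184 CPM (median 143 CPM) with vehicle. On Day 42 the FGF1-treated mice had 192, 178, 139.5, 190.2 and 182 CPM of Aqp4 and the vehicle-treated mice 205, 147, 226, 176 and 110.2 CPM, a change of -0.95 ± 0.22 (edgeR adjusted p = 0.0162). The highest of these was replicate 14, and when it was left out Aqp4 changed by -0.84 and did not pass (adjusted p = 0.0547). Ndrg2, an astrocyte differentiation gene, changed by -0.43 (adjusted p = 0.00567) and Mlc1, a membrane protein of endfeet, by -0.34 (adjusted p = 0.0183), both under the size threshold. The summed level of the 20 genes was 9847 to 10970 CPM with FGF1 and 8948 to 9467 CPM with vehicle on Day 5, without overlap. On Day 42 the sum was 9167 to 10610 CPM with FGF1 and 9869 to 10400 CPM with vehicle, and the groups overlapped. Among 12 tanycyte genes, Gpr50, an orphan receptor of the melatonin receptor family, changed by -1.01 ± 0.21 and Vim was the other to pass. Gpr50 passed in 35 of 38 alternatives and did not pass with only the 26 libraries or with these thinned to the lowest total. The 34 ependymal genes had a median change of -0.19 and none passed. Dnajb13, a component of motile cilia whose exons overlap Ucp2, changed by -1.43 ± 0.29.

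Of 15 measured genes of newly formed oligodendrocytes, 8 had a lower effect on Day 42 (6 without Sample_11) and all 15 had a negative change, with a median of -0.61. Gpr17, the receptor that marks cells leaving the precursor stage and whose exons overlap Lims2, was 116 to 176 CPM (median 147 CPM) with FGF1 and 38.6 to 48.0 CPM (median 43.1 CPM) with vehicle on Day 5. On Day 42 it was 45.6, 45.6, 65.6, 43.7 and 46.7 CPM with FGF1 and 41.9, 51.0, 66.9, 42.2 and 27.2 CPM with vehicle. The FGF1-treated mice thus lay within the range of vehicle on Day 42. The change was -1.69 ± 0.33 (edgeR adjusted p = 0.00314).

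Enpp6, a choline phosphodiesterase of cells that start to myelinate, was 27.5 to 46.5 CPM with FGF1 and 9.18 to 17.8 CPM with vehicle on Day 5. On Day 42 Enpp6 was 17.3, 17.8, 11.6, 19.95 and 18.1 CPM with FGF1 and 17.2, 19.4, 16.1, 17.3 and 8.35 CPM with vehicle, and the groups overlapped. Its change was -1.39 ± 0.33. Bmp4, a secreted signal made at this stage, had a log2 FC of 0.37 ± 0.26 on Day 42 (unadjusted p = 0.159, edgeR) after 1.85 ± 0.25 on Day 5. With 1 mouse of Day 42 left out, the Day 42 log2 FC of Bmp4 ran from 0.157 (FGF1 replicate 9) to 0.5 (vehicle replicate 14). Its change did not pass without FGF1 replicate 10 or vehicle replicate 14 of Day 42 or US-1642312 (vehicle), where the highest adjusted p was 0.0702 (edgeR). Fyn, a kinase that starts myelination, changed by a smaller but precisely measured -0.61 ± 0.07 (adjusted p = 7.33e-07). Its vehicle level was 81.6 to 96.3 CPM on Day 5 and 124 to 132 CPM on Day 42, where the FGF1-treated mice had 124, 138, 121, 127 and 139 CPM. Bcas1, a marker of early myelinating cells, changed by -0.82 ± 0.16 and Itpr2, a calcium channel of the endoplasmic reticulum, by -0.59 ± 0.09. Neu4, a sialidase, and Nkx2-2, a transcription factor of the lineage, changed by -0.76 and -1.06 and did not pass without Sample_11, where they changed by -0.72 and -0.93 (edgeR adjusted p = 0.0764 and 0.05004). Neu4 also did not pass without any 1 of 5 other single mice. Nkx2-2 was 4.26, 4.21, 3.62, 2.57 and 1.83 CPM with FGF1 on Day 42, lowest in Sample_11.

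None of 13 precursor genes passed, with a median change of -0.15. None of 24 mature oligodendrocyte genes passed either, with a median change of -0.13. Olig2, a transcription factor of the whole lineage, changed by -0.38 ± 0.15 (edgeR adjusted p = 0.324). Cnp, a myelin phosphodiesterase whose exons overlap Dnajc7, went from a log2 FC of 0.54 ± 0.09 (Day 5) to 0.11 ± 0.11 (Day 42). Of the 24 mature genes, 7 had passed as higher on Day 5, beside 1.31% of all genes, and their list median on Day 42 was 0.12 (0.09 without Sample_11), above the -0.01 of all genes. Tnr, a matrix protein of precursors and perineuronal nets, changed by -0.43 ± 0.13 (adjusted p = 0.11).

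**Figure D2:**
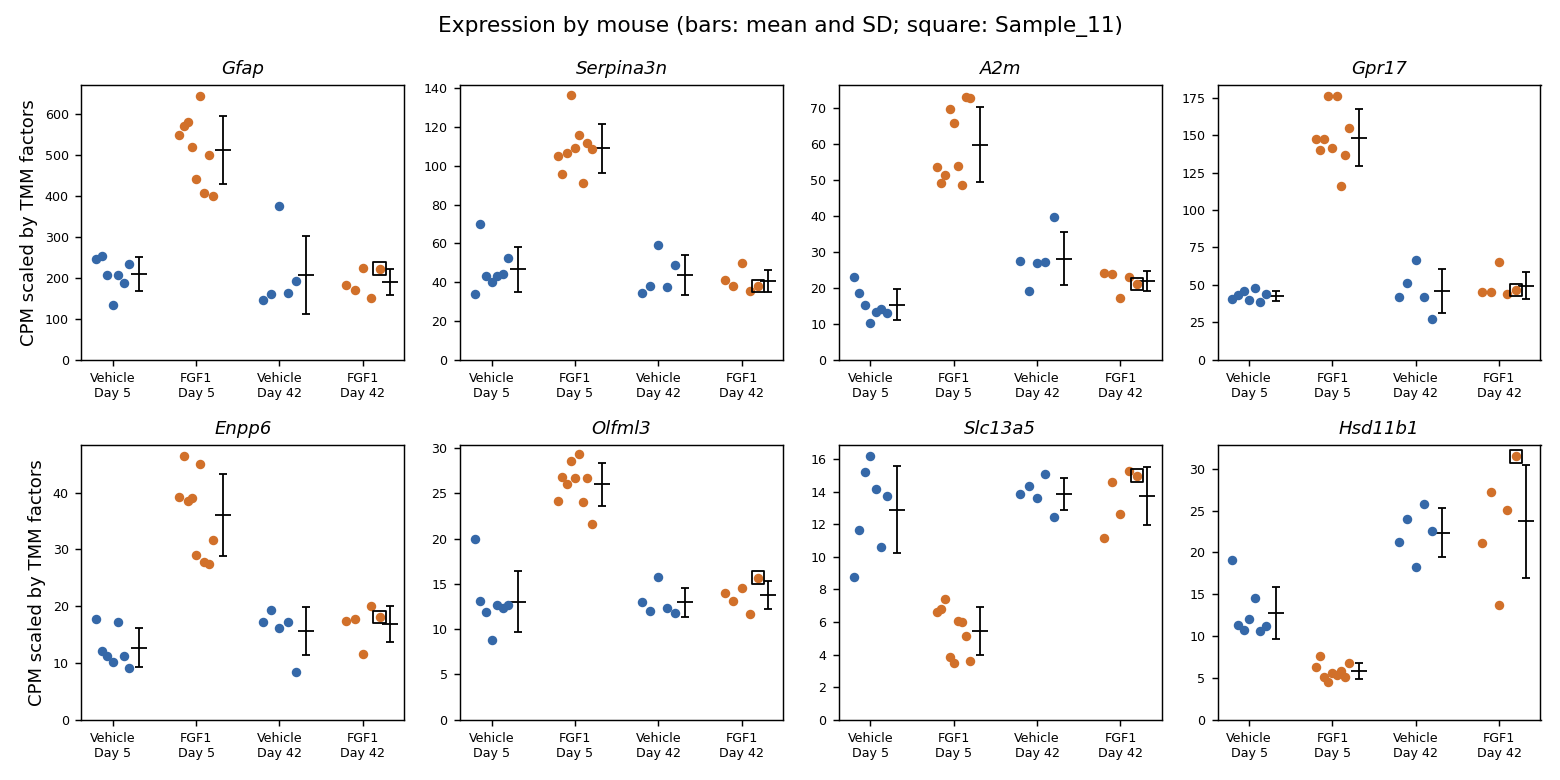
Level of 8 genes (CPM, y axis) in each mouse of the 4 groups, with the group mean and SD beside the points and a square around Sample_11. For the first 6 genes the FGF1-treated mice of Day 5 lie above all vehicle-treated mice of Day 5 and the Day 42 groups overlap, and for Slc13a5 and Hsd11b1 they lie below on Day 5.

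Of 20 homeostatic genes of microglia, 19 had a negative change, with a median of -0.29, and Olfml3 and Fcrls passed with and without Sample_11. Fcrls did not pass without vehicle replicate 14 of Day 42 or the vehicle library US-1642319 of Day 5. Olfml3, a secreted matrix protein of microglia, was 21.7 to 29.3 CPM with FGF1 and 8.85 to 19.9 CPM with vehicle on Day 5. On Day 42 Olfml3 was 13.95, 13.2, 14.5, 11.6 and 15.7 CPM with FGF1 and 12.98, 12, 15.8, 12.4 and 11.8 CPM with vehicle, a change of -0.91 ± 0.19. Fcrls, an Fc receptor-like gene of microglia, was 9.92, 10.4, 10.7, 12.5 and 13.1 CPM with FGF1 on Day 42 and 9.67, 9.27, 11.0, 9.36 and 7.48 CPM with vehicle. Its log2 FC was thus 1.24 on Day 5 and 0.27 ± 0.17 on Day 42, with overlapping groups on the later day. Fcgr2b, the inhibitory IgG receptor, changed by -1.41 ± 0.29. It was 1.28 to 5.595 CPM in vehicle-treated mice of Day 5 but 5.04 to 8.97 CPM in those of Day 42, the range of FGF1-treated mice on Day 5 (4.38 to 8.94 CPM). For Tyrobp, an adaptor of microglial receptors, the change was -0.47 ± 0.20 (edgeR adjusted p = 0.354).

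Among secreted and lipid-handling genes, Clu, the lipid carrier clusterin, was 989 to 1112 CPM with FGF1 and 547 to 622 CPM with vehicle on Day 5. On Day 42 Clu was 616, 669, 669, 530.2 and 795 CPM with FGF1 and 520, 666, 626, 569 and 790.2 CPM with vehicle, so that the groups overlapped. The change was -0.83 ± 0.13 (edgeR adjusted p = 0.000109). Abca1, the exporter of cholesterol to lipoproteins, changed by -0.72 ± 0.15, and Lcat, which esterifies that cholesterol, by -0.91 ± 0.21. These were 3 of the 15 lipoprotein genes, whose median change was -0.03. Plat, tissue plasminogen activator, changed by -0.73 ± 0.15 and was the only 1 of 18 protease genes to pass. Of 13 complement genes, Clu and C4b passed, and only Clu without Sample_11. Of 20 genes of BMP and TGF-beta signalling, Bmp4 and the BMP target Id3 (change of -1.33 ± 0.28) passed. Levels of Id3 differed between the days in both arms, with 18.8 to 26.8 CPM in vehicle-treated mice of Day 5 and 7.52 to 17.7 CPM in those of Day 42. Pygl, liver glycogen phosphorylase, is named outside the rule for named genes given below. It was 1 of the 7 genes with a lower effect that had not passed on Day 5, where its log2 FC was 0.31. It was -0.27 on Day 42, and the change of Pygl was -0.58 (-0.49 without Sample_11, where it did not pass).

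Vehicle levels differed between the days for some of the 69 genes. In 23 of the 69 genes (33.3%) the vehicle mean on Day 42 was over 1.5 times that on Day 5, as for 16.1% of all genes, and in 3 it was under 1/1.5 of it (4.35%, beside 16.8% of all genes). For the other 43, vehicle levels of the days were within 1.5 times of each other. In Bcas1 the ratio of vehicle means, Day 42 to Day 5, was 1.87, in Fcgr2b 2.52 and in A2m 1.83, while in Gfap it was 0.99, in Serpina3n 0.938 and in Gpr17 1.07. Preparation and day share these ratios, and their part in the changes was not tested.

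Gene lists of fibroblasts gave a large median with no gene past the thresholds. All 17 had a negative change, with a median of -0.71 (16 and -0.62 without Sample_11), after a median log2 FC of 0.76 on Day 5. Dcn, a matrix proteoglycan, was 22.2 to 72.2 CPM with FGF1 and 15.5 to 36.2 CPM with vehicle on Day 5, and its change was -0.83 ± 0.43 (edgeR adjusted p = 0.547). Islr and Cyp1b1, both fibroblast genes, changed by -0.88 ± 0.47 and -0.77 ± 0.37. The summed fibroblast level ran from 256 to 1601 CPM among FGF1-treated and from 256 to 1389 CPM among vehicle-treated mice of Day 5, so that the arms overlapped over most of their range. The metallothionein genes Mt1 and Mt2, which bind zinc, had changes of -0.92 ± 0.33 and -1.14 ± 0.38 that did not pass. Vehicle replicate 16 of Day 42 had 130.6 CPM of Mt1 and 109.2 CPM of Mt2, against at most 68.5 and 47.2 CPM in the other vehicle-treated mice of that day. Without that mouse the changes of Mt1 and Mt2 were -0.49 and -0.575. All 15 heat shock genes had a negative change, with a median of -0.20, and none passed.

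**Figure D3:**
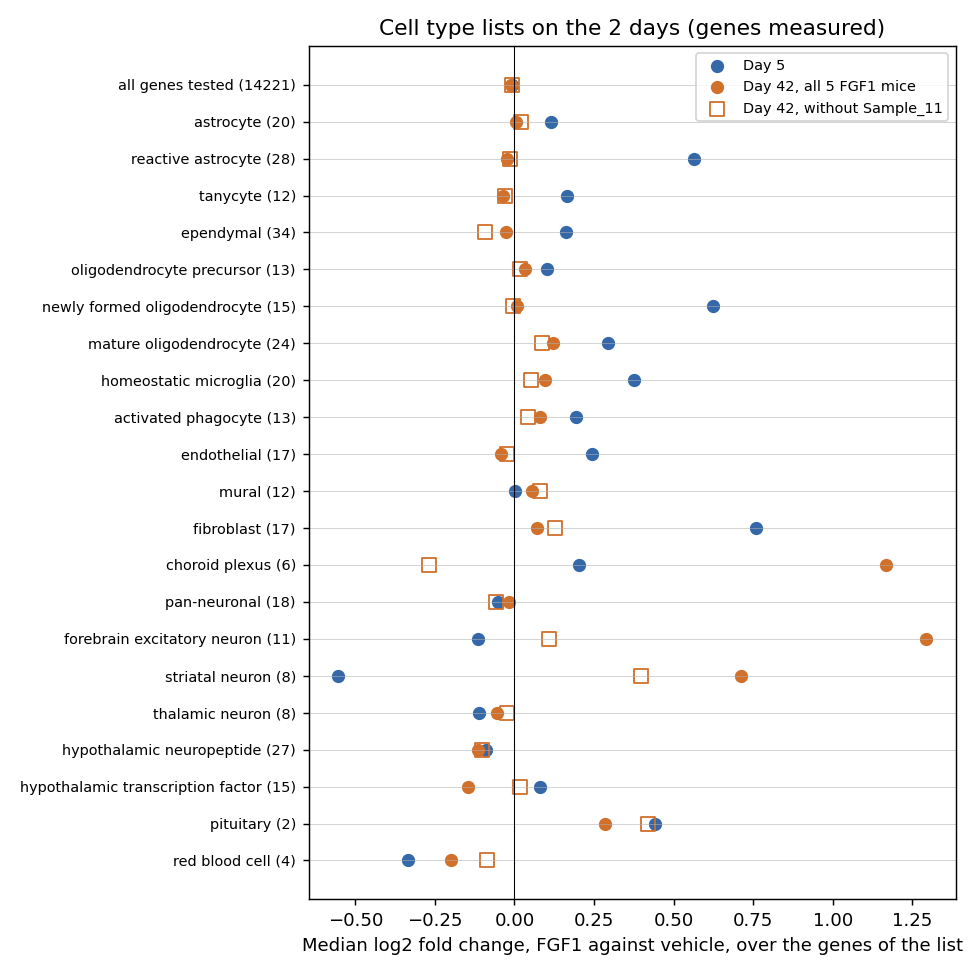
Median log2 FC of FGF1 against vehicle over the genes of each cell type list (number measured in brackets) on Day 5, on Day 42 and on Day 42 without Sample_11. The reactive astrocyte and newly formed oligodendrocyte medians lie at 0.56 and 0.62 on Day 5 and near 0 on Day 42, and the choroid plexus and forebrain medians of Day 42 move toward 0 or below without Sample_11.

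The genes whose FGF1 effect was higher on Day 42 with and without Sample_11 were 7 in number, and 6 of them had passed as lower on Day 5. Slc13a5, a sodium-coupled citrate transporter whose exons overlap 1700051A21Rik, was 3.51 to 7.44 CPM (median 6 CPM) with FGF1 and 8.75 to 16.2 CPM (median 13.7 CPM) with vehicle on Day 5, without overlap. On Day 42 it was 11.2, 14.6, 12.6, 15.3 and 15.0 CPM with FGF1 and 13.8, 14.4, 13.6, 15.1 and 12.5 CPM with vehicle. All mice of Day 42 were thus at the vehicle level of Day 5. Slc13a5 changed by 1.25 ± 0.23 (edgeR adjusted p = 0.00143).

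Hsd11b1, the enzyme that regenerates active glucocorticoid in cells, was 4.52 to 7.59 CPM with FGF1 and 10.6 to 19.1 CPM with vehicle on Day 5. On Day 42 the values were 21.1, 27.3, 13.7, 25.04 and 31.5 CPM with FGF1 and 21.3, 24.1, 18.2, 25.8 and 22.5 CPM with vehicle, with the FGF1-treated mice on both sides of vehicle. Its change was 1.22 ± 0.20 (edgeR adjusted p = 0.000355). Hsd11b1 was the only 1 of 16 glucocorticoid genes to pass, and the list median of the change was 0.32. Kirrel2, an adhesion molecule of the immunoglobulin family, had the largest change of the 7 (1.79 ± 0.32). It was 0.977 to 2.55 CPM with FGF1 and 2.74 to 6.96 CPM with vehicle on Day 5, and on Day 42 both groups together spanned 1.53 to 3.78 CPM.

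Rbm3, an RNA-binding protein induced by cold, was 45.4 to 83.5 CPM with FGF1 and 112 to 134 CPM with vehicle on Day 5, without overlap. On Day 42 Rbm3 was 92.7, 110.2, 99.6, 111 and 114 CPM with FGF1 and 96.8, 104, 97.5, 112 and 134 CPM with vehicle, a change of 0.79 ± 0.16. Its exons overlap the antisense Rbm3os. The long noncoding RNA 2900052N01Rik was 20.4 to 28.98 CPM with FGF1 and 45.97 to 72.8 CPM with vehicle on Day 5. On Day 42 2900052N01Rik was 102.3, 106.4, 89.2, 116.3 and 62.4 CPM with FGF1 and 124.2, 120.1, 113.3, 126.6 and 63.7 CPM with vehicle, where the lowest mice were Sample_11 and vehicle replicate 16. Its log2 FC on Day 42 was -0.20 (exact permutation p = 0.437) and -0.34 without replicate 16 (unadjusted p = 0.0148, edgeR), and the change was 1.15 ± 0.19 (1.01 without that mouse). Itih3, a hyaluronan-binding plasma protein, changed by 0.66 ± 0.15 and did not pass without FGF1 replicate 9 of Day 42 (edgeR adjusted p = 0.0515). Itih3 was 367, 331, 407, 321 and 173 CPM with FGF1 on Day 42, lowest in Sample_11, and its change was 0.81 without that mouse.

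Sp8, a zinc finger transcription factor, was the 1 gene of the 7 with a higher level in FGF1-treated mice of Day 42 at an unadjusted p under 0.05. On Day 5 it was 2.63 to 5.21 CPM (mean 3.604 CPM) with FGF1 and 3.78 to 6.19 CPM (mean 4.60 CPM) with vehicle. The Day 42 mean was 3.53 CPM with FGF1, close to that of Day 5, and 2.18 CPM with vehicle. Sp8 was 3.49, 3.10, 3.46, 4.67 and 2.94 CPM with FGF1 and 2.37, 1.60, 3.26, 2.35 and 1.35 CPM with vehicle on Day 42, where the groups overlapped. The log2 FC was -0.35 ± 0.16 on Day 5 and 0.69 ± 0.19 on Day 42 (unadjusted p = 0.000651, edgeR; exact permutation p = 0.0238), and neither effect passed by itself. Sp8 changed by 1.04 ± 0.25. It passed in 29 of the 37 alternatives that measured it, with a range of 0.73 to 1.23. Without vehicle replicate 16 of Day 42 it changed by 0.90 and did not pass. It also did not pass without FGF1 replicate 10 or vehicle replicate 13 of Day 42, or the vehicle library US-1642312 or US-1642318.

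Genes of sterol and fatty acid synthesis moved in the direction of Slc13a5 without passing. The change was positive for all 25, with a median of 0.30 (0.28 without Sample_11), after a median log2 FC of -0.28 (Day 5) and 0.04 (Day 42). Fdft1, squalene synthase, whose exons overlap Ctsb, was 79.95 to 107 CPM with FGF1 and 119 to 131 CPM with vehicle on Day 5, without overlap. On Day 42 Fdft1 was 121, 132, 130, 133 and 132 CPM with FGF1 and 123, 125, 114, 124 and 136 CPM with vehicle. Its change of 0.41 ± 0.09 had an edgeR adjusted p of 0.0056 but stayed under the size threshold. Scd1, a fatty acid desaturase, and Hmgcs1, an early enzyme of the sterol pathway, changed by 0.53 ± 0.14 (adjusted p = 0.0604) and 0.38 ± 0.11 (adjusted p = 0.0902).

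Of the 33 genes lower on Day 5, 6 (18.2%) were lower on Day 42 at an unadjusted p under 0.05, beside 2.39% of all genes, and 2 (6.06%) were higher, beside 3.07%. Without Sample_11, 6 of the 33 were lower at that p, beside 1.51% of all genes. The 6 with all libraries, named after their values were seen, were Ovgp1, Gipr, BC051142, Il12rb1, Tfr2 and Oas1c, and none passed on Day 42. In exact permutation tests on Day 42, p was 0.0397 for Ovgp1 and for Gipr, and 0.135 to 0.159 for the other 4. For 5 of the 6, Ovgp1 excepted, vehicle replicate 16 was the highest vehicle-treated mouse of Day 42. Without that mouse 2 of the 33 were lower at an unadjusted p under 0.05 (edgeR), beside 3.26% of all genes, and the log2 FC of Gipr on Day 42 was -0.31 (unadjusted p = 0.0896). Gipr, the receptor of the incretin GIP, was 0.752 to 2.33 CPM with FGF1 and 2.55 to 3.74 CPM with vehicle on Day 5. On Day 42 Gipr was 2.63, 3.38, 3.12, 3.58 and 4.17 CPM with FGF1 and 4.88, 3.61, 3.61, 4.47 and 7.84 CPM with vehicle, higher than on Day 5 in both arms. Its log2 FC was -0.93 on Day 5 and -0.55 on Day 42 (unadjusted p = 0.00546, edgeR). Ovgp1, a secreted glycoprotein, had a log2 FC of -0.58 (Day 5) and -0.46 (Day 42).

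The 26 genes that were higher on Day 42 only with Sample_11 included 4 striatal and 2 forebrain excitatory genes. Their median change was 1.35 with and 0.86 without that library, positive for all 26 in both, and their median log2 FC on Day 42 went from 0.80 to 0.28. Sample_11 held the highest level of all 26 mice for 18 of these genes, which follows in part from their choice as genes that passed only with that library. Of the 26 genes, 2 had passed as lower on Day 5.

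Adora2a, the adenosine receptor of striatal neurons, changed by 3.52 ± 0.76 (edgeR adjusted p = 0.0104) and by 2.77 without Sample_11 (adjusted p = 0.0674). It was 0.994, 1.61, 4.10, 0.979 and 9.27 CPM with FGF1 and 0.251, 0.923, 0.426, 0.894 and 1.13 CPM with vehicle on Day 42. On Day 5 the level was 1.13 to 9.37 CPM with FGF1 and 1.21 to 17.5 CPM with vehicle, so that the single groups ranged as widely as the groups differed. Egr3, an immediate early transcription factor, was 1.76, 6.198, 8.05, 5.595 and 54.9 CPM with FGF1 on Day 42 against 3.13 to 4.57 CPM with vehicle. The change of Egr3 was 2.86 with and 1.38 without Sample_11, and it also did not pass without the vehicle library US-1642318 of Day 5.

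Ankrd33b, an ankyrin repeat gene, was 3.98, 8.63, 10.8, 11.6 and 82.4 CPM with FGF1 on Day 42, and its change went from 2.62 to 1.22 without Sample_11. For Ankrd63 it went from 3.02 to 1.82 and for Sh3rf2 from 2.88 to 2.33. Of 8 striatal genes, 4 passed with all libraries and none without Sample_11 (beside 0.232% and 0.0492% of all genes): Drd1 and Adora2a, dopamine and adenosine receptors, and the signalling genes Ppp1r1b and Pde10a. Drd1 was 6.502, 8.41, 16.4, 11.9 and 32.6 CPM with FGF1 and 5.40 to 9.09 CPM with vehicle on Day 42, and 9.76 to 25.7 CPM and 9.45 to 46.8 CPM on Day 5. Its change went from 1.97 to 1.51 without Sample_11. Of 11 forebrain excitatory genes, Ddn and Itpka, both of dendritic spines, passed with all libraries and none without Sample_11. Ddn was 34.6, 58.6, 70.8, 62.0 and 449 CPM with FGF1 on Day 42, against 34.2 to 58.9 CPM with vehicle, and its change went from 2.14 to 0.89. Mef2c, a neuronal transcription factor of the same list, had a change of 1.28 (adjusted p = 0.069) and of 0.41 without Sample_11. Other single mice also ended calls when left out, 3 of them for Ankrd63, 11 for Sh3rf2, 3 for Pde10a, 11 for Ppp1r1b and 13 for Itpka.

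**Figure D4:**
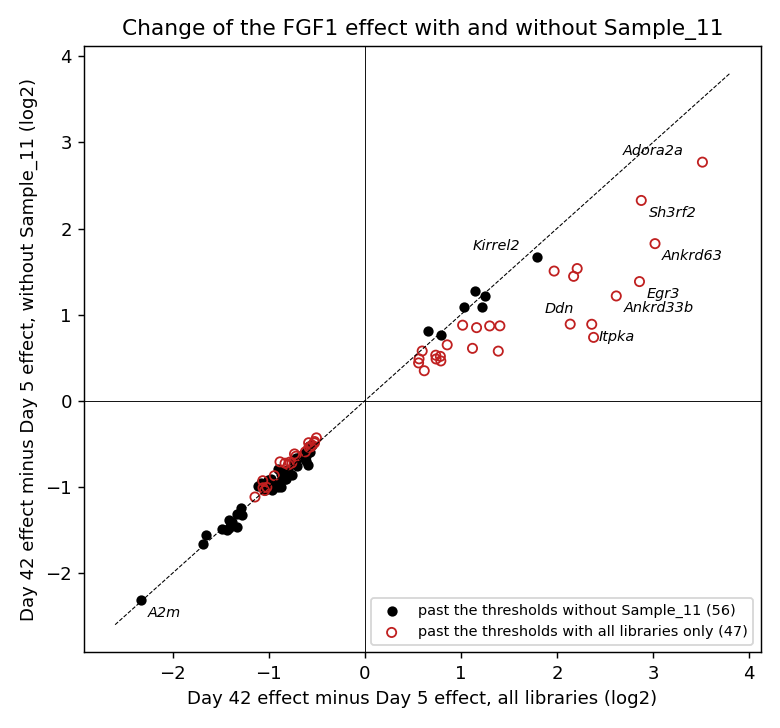
Change of the FGF1 effect, Day 42 minus Day 5 (log2), with all libraries (x axis) and without Sample_11 (y axis) for each gene past the thresholds in either fit. The genes with a lower effect lie along the diagonal, while most open circles on the right, such as Egr3 and Ddn, lie below it.

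High striatal sums were also found outside Sample_11. The striatal sum was 573 CPM in Sample_11, 215 to 340 CPM in the other mice of Day 42, and 187 to 490 CPM on Day 5, where vehicle libraries US-1642318 and US-1642319 were highest. With Sample_11 and these 2 libraries left out, an alternative chosen after the sums were seen, 33 genes had a lower and 6 a higher effect on Day 42. Without Sample_11 alone the median change of the striatal list was still 0.96, from a log2 FC of -0.55 (Day 5) and 0.40 (Day 42). The choroid plexus median turned from 0.85 to -0.49. What part the tissue taken with the punch had in these values was not tested.

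**Figure D5:**
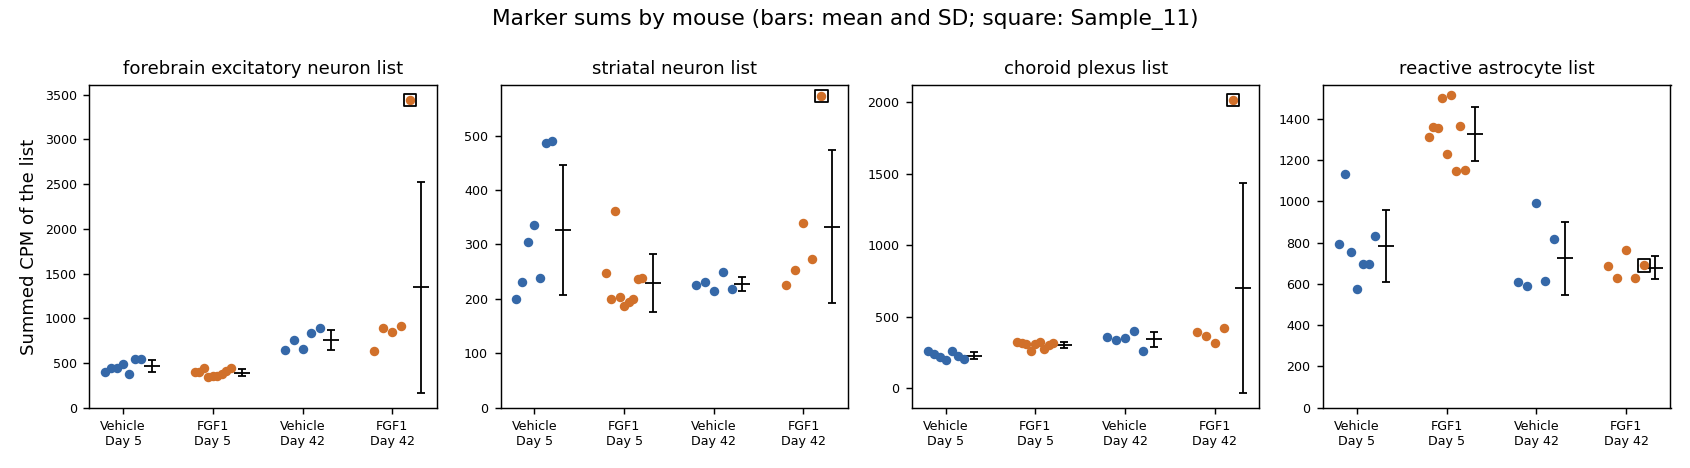
Summed level (CPM, y axis) of 4 cell type lists in each mouse of the 4 groups, with group mean and SD and a square around Sample_11. Sample_11 lies at 3443, 573 and 2017 CPM for forebrain, striatal and choroid plexus genes, above every other mouse of Day 42, and within its group for reactive astrocyte genes.

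In the lists for neurons of the hypothalamus itself, no gene was past the thresholds. Genes in no list were not assigned to a cell type. None of 27 neuropeptide genes, 15 transcription factor genes, 18 pan-neuronal genes or 16 feeding hormone receptor genes passed. Agrp, the peptide of hunger neurons, whose exons overlap Ctcf and Gm5914, had the largest change of the named ones, -1.21 ± 0.48 (edgeR adjusted p = 0.307). It was 4.95, 5.15, 9.70, 3.25 and 3.39 CPM with FGF1 and 12.9, 3.53, 7.82, 9.89 and 33.6 CPM with vehicle on Day 42, so that 1 vehicle-treated mouse, replicate 16, lay far above the rest. Without that mouse the change of Agrp was -0.55, and over all alternatives it ran from -1.58 to -0.55. Its log2 FC on Day 42 was -1.34 ± 0.36 (unadjusted p = 0.000638, edgeR; exact permutation p = 0.103) and did not pass the adjusted threshold. Without replicate 16 it was -0.67 (unadjusted p = 0.0464, edgeR). On Day 5 Agrp was 8.08 to 15.6 CPM with FGF1 and 5.05 to 17.4 CPM with vehicle. Npy, made by the same neurons, changed by -0.39 ± 0.34 and Pomc, the precursor of melanocortin peptides, by -0.45 ± 0.62. Without the same vehicle-treated mouse the change of Npy was -0.01, and its range over the alternatives was -0.75 to -0.01. Pomc ran from 1.72 to 34.1 CPM among FGF1-treated and from 4.15 to 33.5 CPM among vehicle-treated mice of Day 42, so that a change of this size was not detectable. None of 16 ERK feedback genes, which FGF receptor signalling induces, passed, and their median change was 0.00.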

How the data were processed

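Bulk mRNA libraries of hypothalami from 47 ob/ob mice, 1 mouse each, were used as deposited. The authors aligned reads of a strand-specific mRNA kit with STAR and deposited unnormalized whole-number counts for each gene. The genome build is labelled GRCh38, a human name, for these mouse samples, and the counting program and its strand setting are not given in the sources used here. Each gene whose exons overlap another gene may share its reads, which beside the cases given with a gene holds for Bmp4, Fcgr2b, Nkx2-2, Bcas1, Tnr, Ddn, Ppp1r1b, Islr, Mt2, Hmgcs1, Acss3 and Pyroxd2.

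From the counts, TMM factors, a negative binomial fit over all 47 libraries (7 groups, each with its own mean) and quasi-likelihood F tests were computed with edgeR 4.0.16 under R 4.3.3. The change of the FGF1 effect was the contrast (FGF1 minus vehicle on Day 42) minus (FGF1 minus vehicle on Day 5). Benjamini-Hochberg adjustment was over 14221 genes, and the thresholds were an adjusted p under 0.05 and an absolute log2 value above 0.5, those of the study. The filter on low counts removed 0 genes. At most 2 of the deposited genes had a count of 0 in a Day 5 library, against 78 to 136 in a Day 42 library. Genes without counts on Day 5 were thus nearly missing from the deposited counts, and a gain of such genes could not be seen. Single genes were compared within a day by exact two-sided permutation of log2(CPM + 0.5). The SE is the absolute log2 value divided by the square root of F. Precision depends on the number of mice and their spread, and the part of depth for low genes of Day 5 was not tested.

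Genes were grouped by 51 lists written by hand (21 of cell types and 30 of pathways), of which 50 had a measured gene. Members, lists and thresholds were chosen with earlier results of these data known, so that lists are described by counts and medians and not tested. Named genes are, per direction, the 10 largest changes among genes past the thresholds with and without Sample_11 at a mean of at least 2 CPM in a group, the 5 largest that needed Sample_11, the 5 largest that passed only without it, up to 3 members per list, list members past a threshold, and Gfap, Vim, Aqp4, Gpr17, Bmp4, S100a10, Agrp, Npy, Pomc and Mef2c. Genes named outside this rule are marked. The values of 1 gene that the rule allows are not reported here. Exon overlaps and coordinates came from GENCODE vM21 (GRCm38), and promoters from RefSeq.

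Alternatives were DESeq2 1.42.0, its size factors or upper quartile factors in edgeR, limma 3.58.1 with voom and sample quality weights, other filters, the 26 libraries alone or thinned to the lowest total, other vehicle groups on Day 5, other size thresholds, and each mouse left out in turn. In no group did a pair of libraries agree within sampling noise (lowest chi-square per degree of freedom 1.67).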

Additional observations from a re-analysis of the deposited data

Results flagged for a closer look

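The FGF1 effect differed between Day 5 and Day 42, by the test of the difference itself, for 69 genes in the lower and 33 in the higher direction. Among the genes named by the rule or described above, the effect was lower on Day 42, with and without Sample_11, for A2m (-2.33), Gpr17 (-1.69), Aspg (-1.65), Bmp4 (-1.48), Dnajb13 (-1.43), Gfap (-1.41), Fcgr2b (-1.41), Enpp6 (-1.39), Serpina3n (-1.33), Id3 (-1.33), Vim (-0.82), Aqp4 (-0.95), Cd44 (-1.01), Cd109 (-1.03), Fbln5 (-1.11), Gpr50 (-1.01), Fyn (-0.61), Itpr2 (-0.59), Bcas1 (-0.82), Olfml3 (-0.91), Fcrls (-0.97), Clu (-0.83), Abca1 (-0.72), Lcat (-0.91) and Plat (-0.73), each with its log2 change. Of these, Bmp4, Vim, Aqp4, Cd109 and Fcrls did not pass without some other single mouse. It was lower with all libraries but did not pass without Sample_11 for C4b (-1.14), Nkx2-2 (-1.06), Pyroxd2 (-1.06), Acss3 (-1.04), Osmr (-1.02), Neu4 (-0.76) and Pygl (-0.58). The effect was higher on Day 42 with and without Sample_11 for Kirrel2 (1.79), Slc13a5 (1.25), Hsd11b1 (1.22), 2900052N01Rik (1.15), Sp8 (1.04), Rbm3 (0.79) and Itih3 (0.66), of which Sp8 and Itih3 did not pass without some other single mouse. With all libraries only, it was higher for Adora2a (3.52), Ankrd63 (3.02), Sh3rf2 (2.88), Egr3 (2.86), Ankrd33b (2.62), Ddn (2.14), Itpka (2.36), Drd1 (1.97), Pde10a (0.86) and Ppp1r1b (2.17). Day and preparation cannot be told apart for any of these.

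Among 404 groups of 5 to 9 mice, 45 had 1 mouse far from the others of its group by Dixon's test on log2(CPM + 0.5), where chance flags about 5 in 100, and the groups share mice. FGF1 replicate 10 of Day 42 was lowest for Mt1 (28.76 CPM) and Mt2 (18.6 CPM). Sample_11 was highest for Ddn (448.9 CPM), Padi2 (41.98 CPM), choroid plexus marker sum (2017 CPM) and forebrain excitatory neuron marker sum (3443 CPM). Sample_11 was lowest for Itih3 (172.8 CPM), Itpr2 (32.09 CPM) and Pygl (7.83 CPM). FGF1 replicate 7 of Day 42 was highest for pituitary marker sum (20.32 CPM). FGF1 replicate 7 of Day 42 was lowest for Fdft1 (121.1 CPM). FGF1 replicate 8 of Day 42 was lowest for Cyp1b1 (4.372 CPM). FGF1 replicate 9 of Day 42 was highest for Gpr17 (65.6 CPM) and C4b (55.7 CPM). FGF1 replicate 9 of Day 42 was lowest for Enpp6 (11.57 CPM), Aqp4 (139.5 CPM) and mature oligodendrocyte marker sum (7888 CPM). FGF1 library US-1642324 was highest for Pde10a (135.7 CPM), Ppp1r1b (61.65 CPM) and striatal neuron marker sum (360.7 CPM). FGF1 library US-1642325 was highest for Acss3 (18.37 CPM), Neu4 (27.4 CPM) and Tnr (317.6 CPM). FGF1 library US-1642325 was lowest for Fdft1 (79.95 CPM) and Hmgcs1 (175.1 CPM). FGF1 library US-1642329 was lowest for Pyroxd2 (1.932 CPM). FGF1 library US-1642330 was highest for ependymal marker sum (490.8 CPM). FGF1 library US-1642331 was lowest for Islr (4.726 CPM), fibroblast marker sum (255.8 CPM), hypothalamic neuropeptide marker sum (839.3 CPM) and pituitary marker sum (5.537 CPM). Vehicle replicate 15 of Day 42 was highest for Fyn (132.3 CPM). Vehicle replicate 16 of Day 42 was highest for Ndrg2 (1570 CPM). Vehicle replicate 16 of Day 42 was lowest for Enpp6 (8.351 CPM), 2900052N01Rik (63.73 CPM), Sh3rf2 (0.2257 CPM), Zeb2 (41.61 CPM) and oligodendrocyte precursor marker sum (1043 CPM). Vehicle library US-1642298 was highest for Lcat (15.08 CPM). Vehicle library US-1642300 was highest for C4b (210.9 CPM), Tnr (223.3 CPM), Tyrobp (14.15 CPM) and homeostatic microglia marker sum (773.8 CPM). Vehicle library US-1642300 was lowest for Kirrel2 (2.743 CPM) and 2900052N01Rik (45.97 CPM). A list name stands for the summed level of its genes.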

How the results depend on the processing

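The count of genes with a lower effect on Day 42 was 69 and ran from 48 to 83 when each mouse was left out in turn. It was 43 with the 26 libraries thinned to the lowest total, 33 without the 3 libraries of the highest striatal sums (chosen after seeing the data) and 23 at an absolute log2 difference above 1. The count with a higher effect was 33 and ran from 7 to 71 with each mouse left out, 7 of them without Sample_11 and 71 without FGF1 replicate 7 of Day 42. It was 66 without FGF1 replicate 9 and 19 without vehicle replicate 12 of Day 42, and 21, 20, 15 and 16 without the Day 5 libraries US-1642325 (FGF1), US-1642312, US-1642318 and US-1642319 (vehicle). It was 53 with DESeq2, 20 with at least 10 counts in every library, 13 with only the 26 libraries and 52 with both vehicle groups of Day 5 merged. Limma voom weights gave a count of 20, thinned libraries 8, and dropping the 3 libraries of the highest striatal sums 6. The count was 18 once US-1642330 and US-1642331, whose totals were the highest among FGF1-treated mice of Day 5, were dropped. With the diabetic-labelled vehicle of Day 5 as control, Osmr and Pyroxd2 did not pass as lower. With that control Adora2a, Sh3rf2, Egr3, Itpka, Pde10a and Ppp1r1b did not pass as higher. The cause of these differences was not tested. On Day 5 the counts ran from 143 to 212 higher and from 24 to 46 lower with each mouse left out, Day 5 mice included (these were chosen after seeing the data). On Day 42, with each mouse of that day left out, they ran from 0 to 25 higher and from 0 to 6 lower, with 25 and 6 without FGF1 replicate 7 and 1 higher without FGF1 replicate 8. In all 38 alternatives with a test of single genes, 17 of the 69 and 3 of the 33 genes passed. The change of Pomc ran from -1.506 to 0.452 with each mouse left out, the latter without vehicle replicate 14 of Day 42, and with thinned libraries the Day 42 effect turned to -0.508 for Myh6 and 0.172 for Gipr, none of which passed. Of the other values of single genes, 2757 kept direction and side of the threshold, 242 no longer passed and 16 passed only in the alternative. No paired analysis was possible because the groups share no replicate numbers. Adora2a spread widely between vehicle-treated mice of Day 5 (mean 8.35 CPM, SD 6.31 CPM). What part depth had in the values of low genes was not tested.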
